A study of Mus musculus with 6 samples.

Results

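The genes described here were Csf3r, Cxcr2, Ccr1, Ccrl2 and Csf1, chosen by symbol, and each of the 3 deposited matrices held all 5 of them, among 5301 features held by at least 1 matrix. Single-cell RNA-seq with the 10x Genomics 3' kit was run on immune cells gated as CD45+ from pieces of liver, taken from Balb/c mice after injection into the heart of the mouse mammary tumour line 4T07. The tumour cells carried either a scrambled shRNA (Ctrl) or an shRNA against Tim3 (Tim3-KD), and the labels give no other allele or agent. Lesions were located by bioluminescence, for which the paper labelled 4T07 cells with firefly luciferase and GFP, a label it calls immunogenic. By its methods, mice in metastasis assays received medetomidine, ketamine and isoflurane as anaesthesia, luciferin for imaging, and buprenorphine in the days after a procedure. The methods name these without regard to group. The 6 libraries were adjacent tissue without visible tumour (AT) at day 3, micrometastasis (Micro) at day 3 and macrometastasis (Macro) at day 12, with 1 Ctrl and 1 Tim3-KD library at every site. By the methods 2 mice were pooled in a library, and no group had a second library, so a difference between libraries has no replicate check and no p-value can be given. Mouse, tumour line and library cannot be told apart, and neither can site and day for the macrometastasis. Because the shRNA acted in tumour cells and the CD45 gate removes those, Havcr2 (the gene of Tim3) in these libraries does not check it.

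Neutrophils are made in the bone marrow in steps, from promyelocytes through dividing myelocytes and non-dividing metamyelocytes to mature cells. Csf3r is the receptor of G-CSF, the cytokine that drives neutrophil production. Cxcr2 is the receptor for CXCL1, CXCL2 and related chemokines, and it draws mature neutrophils out of the marrow and into tissue. Ccr1 is a receptor for CCL3, CCL5, CCL6, CCL9 and other CC chemokines and is used by neutrophils, monocytes and other myeloid cells. Ccrl2 is an atypical receptor that binds chemerin without classical signalling and is induced in neutrophils and macrophages by inflammatory stimuli. Csf1 is a ligand rather than a receptor: it is M-CSF, the growth factor that keeps monocytes and macrophages alive through its receptor Csf1r.

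On the mouse assembly GRCm38, Csf3r lies at chr4:126024550-126044440 on the plus strand and Cxcr2 at chr1:74153989-74161246 on the plus strand. Ccr1 lies at chr9:123962124-123968692, Ccrl2 at chr9:111054486-111057519 and Csf1 at chr3:107741048-107760469, all 3 on the minus strand, and all 5 are annotated as protein coding. The 250 bases before the annotated start (RefSeq, GRCm38.p6) are shown for the first of 3 Ccrl2 starts and for Csf1, whose windows share a match to the first of the motifs below. They are also shown for Cxcr2, whose window lacks those exact letters but holds the other motif. These were chosen after the matches were seen. Capitals mark matches to GGACTTTCC, letters of the kind that the factor NF-kB binds, or to GAGGAA, letters of the kind that ETS factors such as PU.1 bind, on either strand. No matches overlapped.
Ccrl2, first of 3 start sites, chr9:111057519-111057768, minus strand: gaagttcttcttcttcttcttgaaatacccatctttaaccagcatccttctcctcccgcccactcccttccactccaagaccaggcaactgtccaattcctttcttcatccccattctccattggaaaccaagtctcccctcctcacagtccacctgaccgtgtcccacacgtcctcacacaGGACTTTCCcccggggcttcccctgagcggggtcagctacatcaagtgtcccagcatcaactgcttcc
Csf1, chr3:107760470-107760719, minus strand: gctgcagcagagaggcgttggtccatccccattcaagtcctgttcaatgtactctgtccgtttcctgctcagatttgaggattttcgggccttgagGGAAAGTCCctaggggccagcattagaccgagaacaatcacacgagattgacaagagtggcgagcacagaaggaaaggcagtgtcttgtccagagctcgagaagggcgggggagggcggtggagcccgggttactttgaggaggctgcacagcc
Cxcr2, chr1:74153744-74153993, plus strand: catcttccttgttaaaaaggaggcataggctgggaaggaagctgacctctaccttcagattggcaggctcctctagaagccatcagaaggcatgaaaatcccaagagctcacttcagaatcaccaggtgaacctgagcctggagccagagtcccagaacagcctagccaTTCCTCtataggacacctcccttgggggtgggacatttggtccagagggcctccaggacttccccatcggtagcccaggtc
The letters GGACTTTCC stood once before the first Ccrl2 start, beginning 68 bases before it, and once, on the opposite strand, before the Csf1 start, beginning 154 bases before it, and they were absent from the windows of Csf3r, Cxcr2 and Ccr1. Of all 32851 promoter windows, 0.283% held them. GAGGAA was in the windows of Csf3r, Cxcr2 and Ccr1, beginning 86, 81 and 129 bases before their starts, and in 23.3% of all windows. TTGCNNAA, letters bound by C/EBP factors, was in 9.56% of all windows and in none of the 7 windows of the 5 genes. The motifs were chosen after the sequences and levels had been seen, and a match is a description of letters, not a site.

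The libraries held 542 to 5502 cells, with a median of 6300 to 10248 UMIs (unique molecules) per cell, and at most 11 cell barcodes were shared between any pair of libraries. Levels are given as CPM, the gene's UMIs per 1000000 of all UMIs of the cells concerned, with 95% exact Poisson intervals, and ratios of CPM with exact conditional binomial intervals. Shares of cells are given after each cell was thinned to 1500 UMIs, with exact (Clopper-Pearson) intervals. All intervals cover counting error only. Cells were clustered without the 5 genes and without the genes of the pathway list, and classes were named from marker genes. The mature neutrophil-like class held 577 cells in AT Ctrl, 19 in AT Tim3-KD, 1489 and 1692 in Micro Ctrl and Tim3-KD, and 1630 and 1998 in Macro Ctrl and Tim3-KD. AT Tim3-KD was set apart by its few cells of the neutrophil line: 3.51% of its cells were mature neutrophil-like, against 29.2% to 36.3% in the other 5 libraries, and it held no precursors. Ratios were taken only for classes with at least 20 cells in both libraries, so AT has none within mature neutrophil-like cells.

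Csf3r, Cxcr2 and Ccr1 were genes of the neutrophil line in all of the libraries with such cells. In mature neutrophil-like cells Csf3r stood at 1398 CPM in AT Ctrl, 995 in Micro Ctrl, 817 in Micro Tim3-KD, 773 in Macro Ctrl and 1069 in Macro Tim3-KD, and at 2627 in the 19 cells of AT Tim3-KD. The next class in order was the late neutrophil precursors, at 174 to 335 CPM over 5 libraries, a range that did not overlap with that of the mature cells. Monocyte-like cells followed by median at 56.4 to 165 CPM, and the classes after them (lesion macrophage-like cells at 42.8 to 92.1, cycling precursors at 52.2 to 101) overlapped in their ranges. Endothelial-like cells, lower by median, spread from 4.77 to 326 CPM and so reached into the range of the late precursors. Mature neutrophil-like cells held between 62.4% and 85.6% of all Csf3r UMIs of each library.

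Cxcr2, which marks the later steps of the line, was low outside it except in the endothelial-like cells of Tim3-KD lesions (below). Its mature neutrophil-like level was 845 CPM in AT Ctrl, 875 in Micro Ctrl, 578 in Micro Tim3-KD, 445 in Macro Ctrl and 719 in Macro Tim3-KD, with late precursors at 152 to 299 CPM and no overlap between these classes. Monocyte-like cells were at 5.23 to 29.0 CPM. Basophil or mast cell-like cells, next in order, were at 23.7 to 75.5 CPM over the 3 libraries with at least 20 such cells and overlapped with cycling precursors at 33.3 to 85.2. After thinning, a Cxcr2 UMI was found in 46.1% to 72.4% of mature neutrophil-like cells in these 5 libraries, and unthinned in 81.4% to 97.5%.

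B-like and T-like cells, which should lack Csf3r and Cxcr2, gave the level of stray RNA. A Csf3r UMI was found in 0.167% to 1.43% of thinned B-like cells and in 0.467% to 1.65% of T-like cells, and a Cxcr2 UMI in at most 2.86% and 1.37%. Their median depth was 3484 to 9590 UMIs for B-like and 4092 to 12518 for T-like cells, against 5007 to 5867 for mature neutrophil-like cells. The 70 B-like cells of Micro Tim3-KD stood above the other B-like cells, at 18.9 CPM of Csf3r on 6 UMIs against 1.33 to 10.8. They did so for the other members too, most for Ccrl2, at 167 CPM on 53 UMIs against 3.98 to 19.1. Cxcr2 was there at 18.9 CPM on 6 UMIs, Ccr1 at 28.3 on 9 and Csf1 at 40.9 on 13.

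Ccr1 reached further into the other myeloid cells. It stood at 812 CPM in mature neutrophil-like cells of AT Ctrl, 646 and 482 in Micro Ctrl and Tim3-KD, and 831 and 891 in Macro Ctrl and Tim3-KD. Lesion macrophage-like cells were a class led by Pf4, Trem2 and Spp1 among others, mixed in make-up (below). Late precursors were at 202 to 368 CPM, lesion macrophage-like cells at 106 to 214, basophil or mast cell-like cells at 119 to 133 and monocyte-like cells at 30.5 to 163. Late precursors overlapped with lesion macrophage-like cells and lay above the other 2 classes, and the last 3 overlapped with each other. In Micro Ctrl the monocyte-like cells held 12.3% and the lesion macrophage-like cells 8.22% of all Ccr1 UMIs, while the resident Kupffer-like cells held 0.139%.

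Ccrl2 was spread over most myeloid classes and was highest in mature neutrophil-like cells, at 2146 CPM in AT Ctrl, 1664 in Micro Ctrl, 784 in Micro Tim3-KD, 1675 in Macro Ctrl and 2280 in Macro Tim3-KD. Lesion macrophage-like cells came next at 498 to 697 CPM, below each of these values. Monocyte-like cells were at 109 to 531, Kupffer-like cells at 210 to 335 and late precursors at 108 to 507 CPM, with ranges that overlapped. Promyelocyte-like cells, at 17.0 to 22.3 CPM, were below T-like cells (27.7 to 95.4), so stray RNA was not separated from expression in them. Unlike Cxcr2, Ccrl2 had a clear level in Kupffer-like cells, where 11.4% to 29.2% of thinned cells had a UMI against 1.00% to 4.29% of B-like cells. In AT Tim3-KD, with few neutrophils, Kupffer-like cells held 31.9% of all Ccrl2 UMIs and mature neutrophil-like cells 41.2%.

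Among whole classes Csf1 was highest outside the neutrophils, in basophil or mast cell-like cells (marked by Mcpt8 and Prss34). These stood at 875 CPM in Micro Ctrl (34 cells), 469 in Micro Tim3-KD (52 cells) and 601 in Macro Tim3-KD (34 cells), all above the mature neutrophil-like class as a whole, though below its cluster 1, at 1060, 896 and 760 CPM in the same libraries. Mature neutrophil-like cells were at 446 CPM in AT Ctrl, 262 in Micro Ctrl, 190 in Micro Tim3-KD, 434 in Macro Ctrl and 428 in Macro Tim3-KD. Endothelial-like cells, which passed the CD45 sort in small numbers, were at 116 to 190 CPM, just under the lowest neutrophil value. Because they were many, mature neutrophil-like cells still held 58.6% to 86.7% of all Csf1 UMIs in the 5 libraries, against 1.20% to 8.74% for basophil or mast cell-like cells. Csf1r, the receptor of Csf1, lay in other cells: 1450 to 1952 CPM in Kupffer-like, 386 to 469 in lesion macrophage-like and 99.9 to 337 in monocyte-like cells, against 35.0 to 68.6 in mature neutrophil-like cells.

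**Figure D1:**
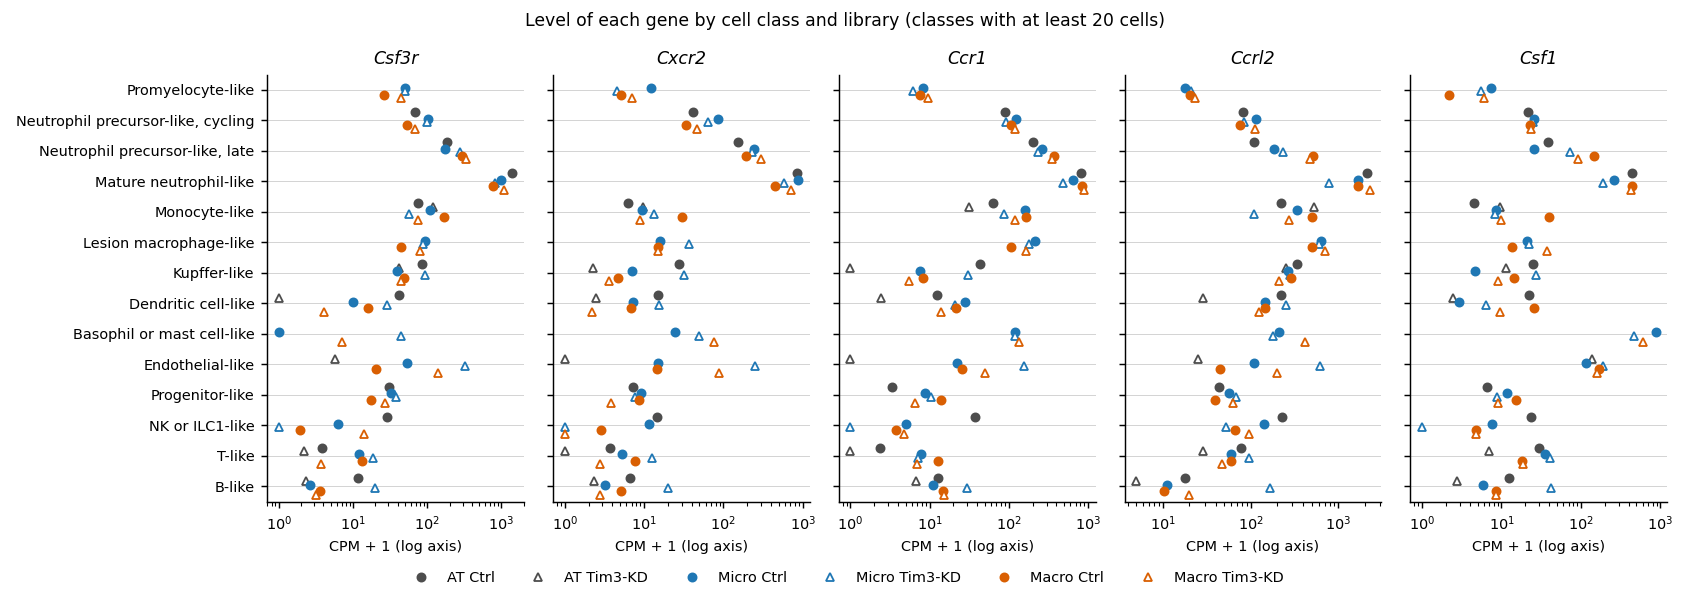
CPM + 1 of each gene on a log axis, by cell class (rows) and library (symbols: filled circles Ctrl, open triangles Tim3-KD; grey AT, blue Micro, orange Macro), for classes with at least 20 cells. Mature neutrophil-like cells lie furthest right for the 4 receptor genes, while Csf1 is furthest right in basophil or mast cell-like cells, at 469 to 875 CPM.

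Along the neutrophil line, the ranges of Csf3r, Cxcr2 and Ccr1 over libraries were higher at each later step without overlap, while those of Ccrl2 and Csf1 overlapped between cycling and late precursors. Csf3r was present from the start: promyelocyte-like cells stood at 25.1 to 48.7 CPM in the 4 libraries with at least 20 of them, cycling precursors at 52.2 to 101 and late precursors at 174 to 335. Cxcr2 was nearly absent in promyelocyte-like cells, at 3.54 to 11.1 CPM, then 33.3 to 85.2 in cycling precursors and 152 to 299 in late precursors. Ccr1 was at 5.16 to 8.42, 88.5 to 121 and 202 to 368 CPM in the same classes.

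Ccrl2 and Csf1 stayed low for longer in the libraries of day 3. Late precursors held 108 CPM of Ccrl2 in AT Ctrl, 183 in Micro Ctrl and 235 in Micro Tim3-KD, against 507 in Macro Ctrl and 469 in Macro Tim3-KD. Csf1 was at 38.0 CPM in late precursors of AT Ctrl, 24.6 in Micro Ctrl and 72.9 in Micro Tim3-KD, against 146 in Macro Ctrl and 90.1 in Macro Tim3-KD. The late precursors of the macrometastases thus stood above those of day 3 for both genes. Cycling precursors of the 5 libraries were close to each other for Csf1, at 20.9 to 24.9 CPM.

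Within the mature neutrophil-like cells, 4 clusters differed in these genes. Cluster 2 (led by stefin genes, Prok2 and Mmp8) was lowest in all 5 genes in the libraries of day 3, cluster 0 (led by Steap4 and Acod1) was in between, and cluster 1 (led by Steap4, Ptgs2 and Acod1) was highest. The median depth was 7878 UMIs per cell in cluster 2, 4850 in cluster 0 and 5142 in cluster 1. Cluster 3 (led by Bcl2l15, Arrdc4 and Saa3) held cells of the macrometastases almost alone. Ccrl2 stood at 168, 372 and 346 CPM in cluster 2 of AT Ctrl, Micro Ctrl and Micro Tim3-KD and at 4735, 5299 and 3476 in cluster 1. Csf1 was at 59.8, 36.0 and 82.6 CPM in cluster 2 of the same libraries and at 994, 1060 and 896 in cluster 1.

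For the other receptors the spread between clusters was smaller. Csf3r was at 662, 587 and 594 CPM in cluster 2 of AT Ctrl, Micro Ctrl and Micro Tim3-KD, at 1338, 1240 and 1229 in cluster 0 and at 2058, 1732 and 1710 in cluster 1. Csf3r was nearly level between Micro Ctrl and Micro Tim3-KD in each of these clusters. Cxcr2 went from 456, 696 and 477 CPM in cluster 2 to 1177, 1093 and 1011 in cluster 1. Cluster 3 of Macro Ctrl had 656 CPM of Csf3r and 384 of Cxcr2, below the 1865 and 999 of cluster 1 in that library, but 799 of Ccr1 and 1537 of Ccrl2. In Macro Tim3-KD, cluster 3 was the lowest of the 4 clusters for Csf3r, at 611 CPM against 681 in cluster 2, and for Cxcr2, at 419 against 634, but not for the other 3 genes.

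**Figure D2:**
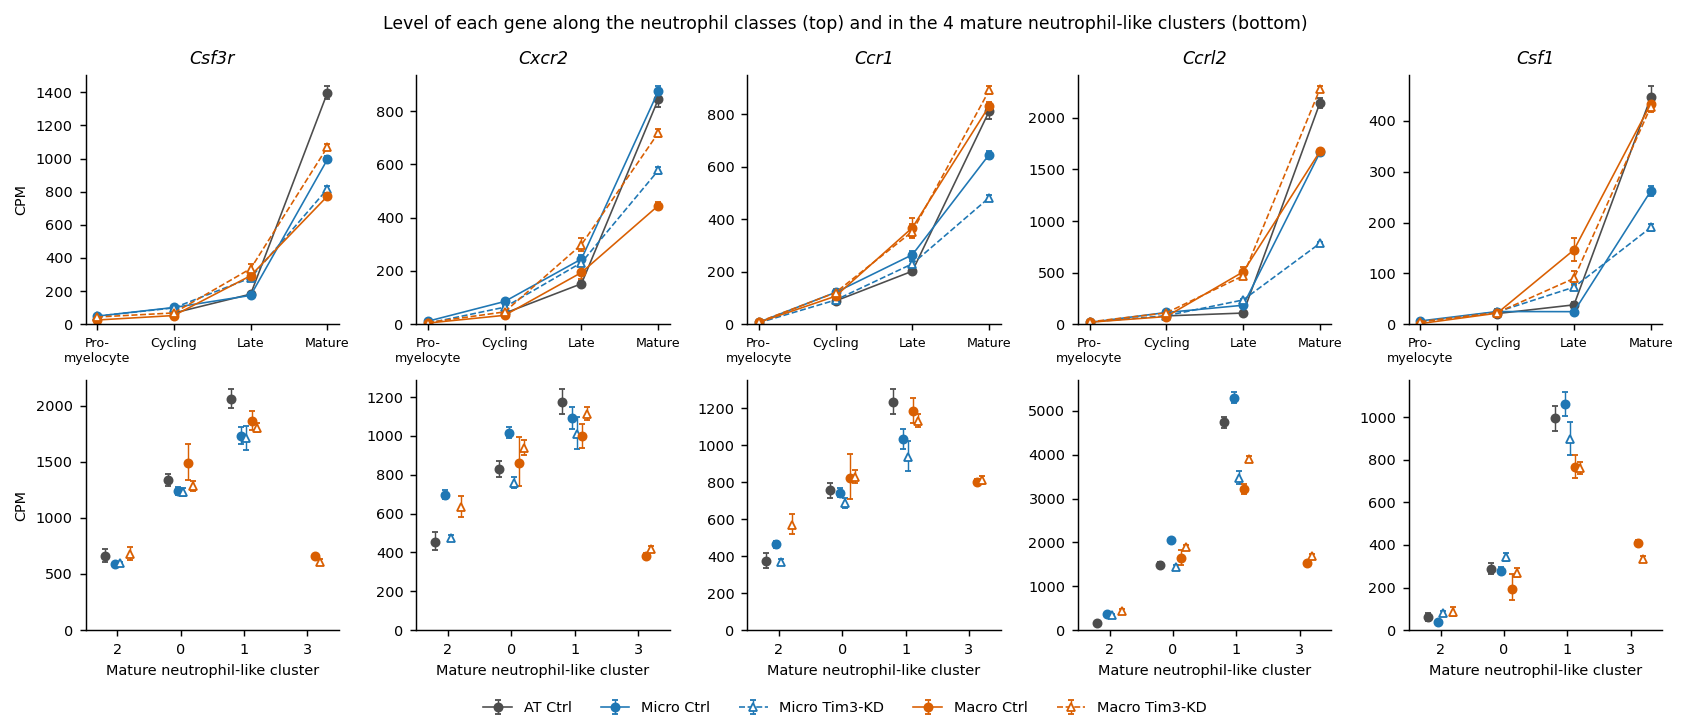
CPM of each gene with 95% Poisson intervals (bars), in the 4 neutrophil classes (top, joined by lines) and in the 4 mature neutrophil-like clusters (bottom), by library, for groups of at least 20 cells; AT Tim3-KD had none. Levels are highest in the mature class for each gene, and Ccrl2 and Csf1 peak in cluster 1, at 3211 to 5299 and 760 to 1060 CPM.

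The clusters were unevenly spread over the libraries. In Micro, cluster 2 made up 34.3% of the mature neutrophil-like cells of Ctrl and 55.1% of those of Tim3-KD, and cluster 1 held 223 of 1489 and 99 of 1692 cells. In Macro, cluster 3 made up 87.9% in Ctrl and 52.5% in Tim3-KD, cluster 1 made up 9.45% and 25.8%, and cluster 0 made up 2.27% and 17.9%. AT Ctrl was split between cluster 0 (45.8%) and cluster 1 (43.5%).

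**Figure D3:**
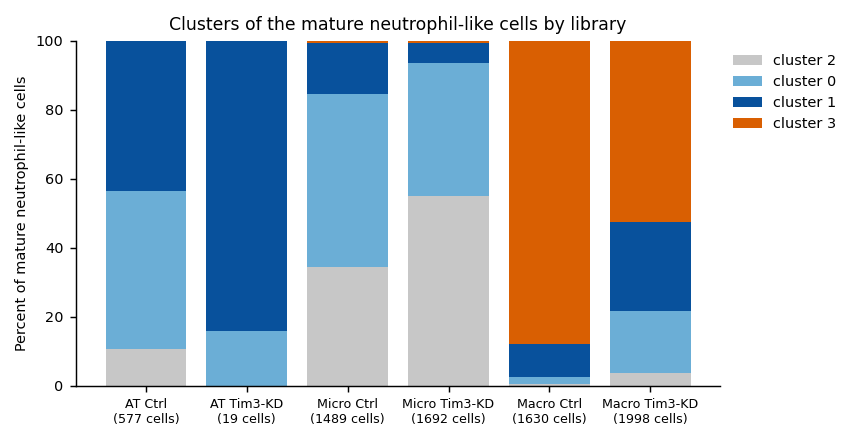
Percent of mature neutrophil-like cells (vertical axis) in clusters 2, 0, 1 and 3 (stacked colours) for each library, with the number of cells under each bar. The low cluster 2 is larger in Micro Tim3-KD (55.1%) than in Micro Ctrl (34.3%), and cluster 3 is smaller in Macro Tim3-KD (52.5%) than in Macro Ctrl (87.9%).

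Many mature neutrophil-like cells carried several of these transcripts at once. After thinning, at least 1 of the 5 genes was missing in most cells, but only 2.22% to 5.56% of the cells had none of them, against 92.9% to 97.0% of B-like cells. All 5 were found in 24.3% of cells in AT Ctrl, 10.1% in Micro Ctrl, 5.97% in Micro Tim3-KD, 8.96% in Macro Ctrl and 13.3% in Macro Tim3-KD. Ccrl2 and Csf1 were found together more often than the product of their shares: in 40.6% of AT Ctrl cells (36.5% to 44.7%) against a product of 33.1%, and in 16.4% of Micro Tim3-KD cells (14.6% to 18.2%) against 10.8%. Within cluster 1 the joint share and the product were 66.5% and 65.7% in AT Ctrl and 60.6% and 61.4% in Micro Tim3-KD. Csf3r and Cxcr2 were found together in 56.3% of Micro Ctrl cells (53.8% to 58.9%), and the product was 55.6%.

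The first question of the design was how the immune cells differed between Tim3-KD and Ctrl at each site. In AT, all 5 genes were at least 2-fold lower over all cells in Tim3-KD, beside 9.32% of the 4485 genes tested that were at least 2-fold lower and 34.0% that were at least 2-fold higher. Csf3r went from 244 CPM (Ctrl) to 55.6 (Tim3-KD), a ratio of 0.228 (0.205 to 0.252), and Cxcr2 at 144 and 18.5, a ratio of 0.128 (0.107 to 0.152). Ccrl2 differed least, with 378 and 172 CPM and a ratio of 0.456 (0.430 to 0.484). The trimmed mean over all matrix genes was 0.60 on the log2 scale, opposite in sign to the 5 genes. These values move with the share of mature neutrophil-like cells (32.0% for Ctrl, 3.51% for Tim3-KD). The levels in the 19 such cells of Tim3-KD were not below those of Ctrl for any of the 5 genes. However, 84.2% of these cells lay in cluster 1, the highest cluster at day 3, against 43.5% in Ctrl. Within cluster 1, Csf1 was at 994 CPM (936 to 1054) in Ctrl and 703 (539 to 901) in the 16 cells of Tim3-KD. Cxcr2 was there at 1177 (1114 to 1242) and 1224 (1004 to 1478). Fewer neutrophils and less RNA of these genes per library cannot be told apart over all cells.

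In Micro, all 5 genes were lower in Tim3-KD over all cells with intervals below 1. The trimmed mean over the variable genes of the matrix was -0.44 (log2), and Csf3r and Csf1 lay above it. Ccrl2 alone was at least 2-fold lower, beside 18.1% of the 2669 genes tested (0.749% were at least 2-fold higher). Over all cells its level was 481 CPM (Ctrl) and 224 (Tim3-KD), with a ratio of 0.466 (0.457 to 0.474), a log2 ratio of -1.10 that was no longer past 2-fold on the trimmed mean scale (-0.66) or as a mean over cells (-0.81). In mature neutrophil-like cells alone, Ccrl2 was again the only member at least 2-fold lower, with 1664 and 784 CPM and a ratio of 0.471 (0.460 to 0.483), beside 6.04% of 2186 genes lower and 1.78% higher. Cxcr2 had a ratio of 0.660 (0.640 to 0.680), Csf1 of 0.726 (0.688 to 0.767), Ccr1 of 0.746 (0.721 to 0.772) and Csf3r of 0.821 (0.799 to 0.843). Over all matrix genes, the trimmed mean of the log2 ratios in these cells was -0.14. The matrix holds variable genes with 11.3% of all UMIs of Micro, so this is not a scale of all RNA. On it the members were lower by less than these ratios show, and Ccrl2, at -0.94, was no longer past 2-fold.

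Ratios in Micro were also taken at the cluster mix of Ctrl, which gives no interval. Clusters are drawn from expression, so a change of mix and a change of level cannot be told apart. With the cluster mix of Ctrl, the Tim3-KD over Ctrl ratio was 0.996 for Csf3r, and its ratio within clusters 0, 1 and 2 lay between 0.988 and 1.01. Ccr1 came to 0.879 and Csf1 to 1.11. Cxcr2 and Ccrl2 stayed lower at the same mix, at 0.751 and 0.708. Within clusters, Cxcr2 had ratios of 0.747 (0.712 to 0.784) in cluster 0, 0.925 (0.839 to 1.02) in cluster 1 and 0.685 (0.655 to 0.717) in cluster 2. Ccrl2 had 0.702 (0.678 to 0.726), 0.656 (0.624 to 0.690) and 0.930 (0.878 to 0.986). Csf1 went the other way in cluster 2, with 36.0 CPM (Ctrl) and 82.6 (Tim3-KD) and a ratio of 2.29 (1.95 to 2.72), and it was at 1.23 (1.14 to 1.33) in cluster 0 and 0.845 (0.762 to 0.936) in cluster 1.

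In Macro, no member was past 2-fold in Tim3-KD against Ctrl in either direction, over all cells (beside 2.27% of 2643 genes higher and 10.6% lower) or in mature neutrophil-like cells (beside 3.53% of 2207 genes higher and 3.08% lower). In mature neutrophil-like cells Cxcr2 had 445 CPM (Ctrl) and 719 (Tim3-KD), for a ratio of 1.61 (1.56 to 1.67). Csf3r had a ratio of 1.38 (1.35 to 1.42), Ccrl2 of 1.36 (1.34 to 1.39) and Ccr1 of 1.07 (1.04 to 1.10), all above 1, while Csf1 was at 0.987 (0.951 to 1.02). The trimmed mean over all matrix genes was -0.11 on the log2 scale. Most of these cells lay in cluster 3 in both libraries, with clusters 0 and 1 larger in Tim3-KD. With the cluster mix of Ctrl over clusters 0, 1 and 3, the ratio was 0.936 for Csf3r, 1.10 for Cxcr2, 1.01 for Ccr1, 1.12 for Ccrl2 and 0.845 for Csf1. The Csf3r ratio thus turned from above to below 1, and the widest spread of ratios between clusters was for Csf1, from 0.814 (0.774 to 0.856) in cluster 3 to 1.38 (1.02 to 1.93) in cluster 0, where Ctrl had 37 cells.

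**Figure D4:**
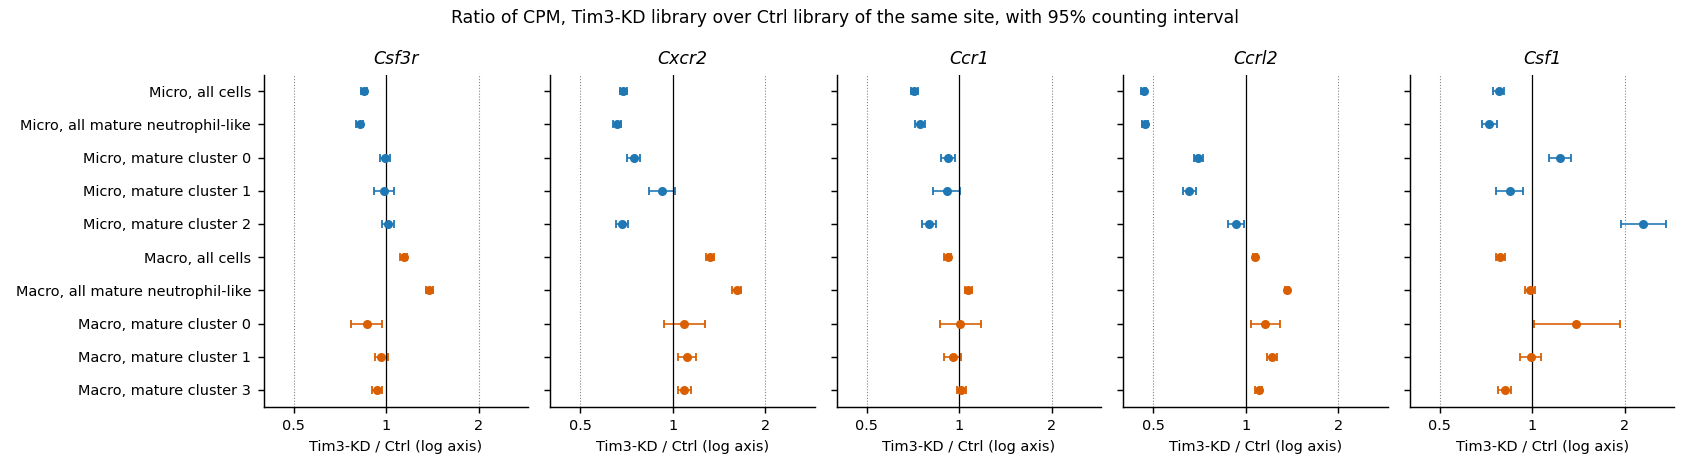
Ratio of CPM, Tim3-KD over Ctrl, on a log axis with 95% binomial intervals (bars), over all cells, all mature neutrophil-like cells and single clusters of Micro (blue) and Macro (orange); dotted lines mark 2-fold. Csf3r lies at 0.821 in Micro and 1.38 in Macro over all mature neutrophil-like cells but near 1 within the Micro clusters, and the points of Ccrl2 and Cxcr2 stay below 1 in the Micro clusters, with the interval of Cxcr2 in cluster 1 reaching 1.02.

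Outside the mature neutrophils, precursors differed less evenly. Late precursors of Micro had 174 CPM (Ctrl) and 279 (Tim3-KD) of Csf3r, a ratio of 1.61 (1.48 to 1.75), and 24.6 and 72.9 CPM of Csf1, a ratio of 2.96 (2.42 to 3.65). Ccrl2 was also higher there, with 183 and 235 CPM and a ratio of 1.28 (1.18 to 1.39), opposite to its ratio in the mature cells. In the same cells Cxcr2 was at 0.945 (0.877 to 1.02) and Ccr1 at 0.870 (0.809 to 0.935). In cycling precursors of Micro, Cxcr2 was at 0.749 (0.673 to 0.833), Ccrl2 at 0.726 (0.662 to 0.797) and Csf3r at 0.976 (0.888 to 1.07). Basophil or mast cell-like cells of Micro had a Csf1 ratio of 0.536 (0.451 to 0.636). In Macro, late precursors had a Cxcr2 ratio of 1.54 (1.32 to 1.80) and a Csf1 ratio of 0.616 (0.495 to 0.766).

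In the largest monocyte-like cluster (cluster 8, led by Ms4a4c and Thbs1), Ccr1 was at 191 CPM in Micro Ctrl and 198 in Micro Tim3-KD, a ratio of 1.04 (0.943 to 1.14), and Ccrl2 at 435 and 325, a ratio of 0.748 (0.698 to 0.801). The ratio of the whole monocyte-like class for Ccrl2 was 0.322 (0.303 to 0.343), and that for Ccr1 was 0.535 (0.494 to 0.579). Cluster 6 (led by F13a1 and Ly6c genes) held 95 cells in Ctrl and 383 in Tim3-KD, with Ccrl2 at 66.7 and 28.7 CPM, a ratio of 0.430 (0.352 to 0.526), and Ccr1 at 68.8 and 43.5 CPM, a ratio of 0.632 (0.526 to 0.763). What part the mix of clusters had in the ratios of the class was not tested. Lesion macrophage-like cells numbered 404 in Micro Ctrl and 131 in Micro Tim3-KD. With the members included in the clustering, cells led by Trem2 and Spp1 formed a cluster of 409 and 65 cells in these libraries, and cells led by Pf4, Thbs1 and the hepatocyte gene Alb another of 6 and 77, so ratios within this class may compare different cells. In this class of Micro, Ccrl2 had a ratio of 0.955 (0.877 to 1.04) and Ccr1 of 0.830 (0.708 to 0.968). In the class of Macro, Ccrl2 had 1.40 (1.29 to 1.51) and Ccr1 1.56 (1.32 to 1.85). With the members in the clustering, the Trem2 and Spp1 cluster held 34 cells of Macro Ctrl and 48 of Macro Tim3-KD. The cluster led by Pf4, Thbs1 and Alb held 186 and 196, so in Macro this class may hold largely other cells. Classes that should lack neutrophil genes also differed: endothelial-like cells of Micro had 14.0 CPM of Cxcr2 in Ctrl (78 cells) and 251 in Tim3-KD (38 cells), beside 52.6 and 326 of Csf3r, 21.0 and 156 of Ccr1, and 109 and 624 of Ccrl2. The summed level of the 14 mature neutrophil markers held by the matrix moved with it, at 908 and 5694 CPM in these cells, with all 14 detected in both. Endothelial-like cells of Macro had 13.7 CPM of Cxcr2 in Ctrl (346 cells) and 86.2 in Tim3-KD (133 cells), a ratio of 6.30 (3.73 to 10.9). The ratio there was 7.13 for Csf3r, 2.04 for Ccr1, 4.48 for Ccrl2 and 0.921 (0.711 to 1.18) for Csf1, with summed markers at 441 and 1893 CPM. In Kupffer-like cells of Micro, Cxcr2 had a ratio of 5.09 (2.89 to 9.57), Ccr1 of 4.57 (2.62 to 8.44) and Csf1 of 7.17 (3.54 to 16.4). Csf3r was at 2.45 (1.91 to 3.16) and Ccrl2 at 1.07 (0.960 to 1.20), and the summed markers were at 1017 and 1370 CPM. Of these cells, 61 of 274 in Ctrl and 4 of 256 in Tim3-KD lay in cluster 21, so the ratios may compare different cells. Kupffer-like cells of the other sites went the other way or had intervals including 1. In Macro, Cxcr2 was at 0.733 (0.418 to 1.28), Ccr1 at 0.615 (0.408 to 0.923) and Csf1 at 0.591 (0.437 to 0.796), with summed markers at 118 and 69.3 CPM. In AT, the UMIs of Cxcr2 were 10 (Ctrl) and 2 (Tim3-KD) and those of Ccr1 16 and 0, and Csf1 had a ratio of 0.435 (0.181 to 1.12), with summed markers at 1497 and 644 CPM. The part of the markers in these results was not tested.

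The Ctrl libraries also allow a comparison between sites, from matrices that the authors scaled separately. In mature neutrophil-like cells, no member was past 2-fold in Micro against AT, beside 5.93% of 1753 shared genes higher and 6.96% lower. Csf1 had a ratio of 0.587 (0.553 to 0.624), Csf3r of 0.712 (0.689 to 0.736), Ccrl2 of 0.775 (0.755 to 0.796), Ccr1 of 0.796 (0.763 to 0.831) and Cxcr2 of 1.04 (0.995 to 1.08). Clusters 0 and 1 held most of these cells in AT and clusters 0 and 2 in Micro. Within cluster 0, Ccrl2 was higher in Micro with a ratio of 1.38 (1.32 to 1.44), as was Cxcr2 with 1.23 (1.16 to 1.30). Cxcr2 was at 0.929 (0.861 to 1.00) in cluster 1, an interval that reached 1, and at 1.52 (1.37 to 1.70) in cluster 2. Ccrl2 was also higher in Micro within cluster 1, at 1.12 (1.08 to 1.16), and cluster 2, at 2.22 (1.87 to 2.65), opposite to its ratio over the class. Csf1 was at 0.966 (0.872 to 1.07) in cluster 0 and 1.07 (0.985 to 1.16) in cluster 1, both intervals including 1, and at 0.601 (0.439 to 0.838) in cluster 2.

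In the same class no member was past 2-fold in Macro against Micro, beside 30.3% of 1495 shared genes higher and 6.69% lower, with a trimmed mean log2 ratio of 0.55 over the shared genes. Cxcr2 came nearest, with 875 CPM in Micro and 445 in Macro, a ratio of 0.509 (0.492 to 0.526). Csf3r was at 0.777 (0.755 to 0.799), Ccrl2 at 1.01 (0.986 to 1.03), Ccr1 at 1.29 (1.25 to 1.33) and Csf1 at 1.66 (1.58 to 1.73). That shift of 0.55 is one of shared variable genes, not of all RNA. Relative to it, Cxcr2 (log2 ratio -0.97) was past 2-fold lower and Ccr1 (0.36) was lower rather than higher, while Csf1 (0.73) stayed higher. Over all cells of these libraries Csf1 was at 67.8 CPM in Micro and 144 in Macro, a ratio of 2.13 (2.04 to 2.21). The mature neutrophil-like cells lay mainly in cluster 3 in Macro and in clusters 0 and 2 in Micro. Within cluster 1, present in both, Cxcr2 was at 0.914 (0.843 to 0.991) and Csf3r at 1.08 (1.01 to 1.15), while Ccrl2 was at 0.606 (0.581 to 0.632) and Csf1 at 0.724 (0.663 to 0.791).

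The ligands of these receptors came partly from the same cells and partly from others. Csf3, Cxcl5, Ppbp and Rarres2 (the gene of chemerin) are not analysed here, and Cxcl2 was held only as a feature merged with Cxcl3. Cxcl1, a Cxcr2 ligand, was at 131 and 710 CPM in lesion macrophage-like cells of Micro Ctrl and Tim3-KD, a class whose cells differed in make-up between these libraries in the other clusterings (above), and stood at 83.3 to 285 CPM in Kupffer-like cells and 12.1 to 40.2 in mature neutrophil-like cells. Cxcl3, another Cxcr2 ligand, was higher in mature neutrophil-like cells than in any other class of the 3 Ctrl libraries and of Macro Tim3-KD. It stood there at 116 CPM in Micro Ctrl and 19.3 in Micro Tim3-KD, a ratio of 0.167 (0.145 to 0.191), and at 95.7 and 206 in Macro Ctrl and Tim3-KD, a ratio of 2.16 (2.01 to 2.31).

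Among the Ccr1 ligands, Ccl5 lay in lymphocytes, at 14453 to 23971 CPM in NK or ILC1-like cells against 2.09 to 6.70 in mature neutrophil-like cells. Ccl3 and Ccl4 were highest in basophil or mast cell-like cells of the 3 libraries with at least 20 of them, at 6882 to 7619 and 10601 to 10813 CPM, and Ccl3 was at 115 to 495 CPM in mature neutrophil-like cells themselves. Ccl4 was lower in mature neutrophil-like cells of Micro Tim3-KD, with 345 CPM (Ctrl) and 92.8 (Tim3-KD) and a ratio of 0.269 (0.252 to 0.287). Ccl6 was at 620 to 906 CPM in mature neutrophil-like cells and at 720 to 4509 in lesion macrophage-like and 4120 to 8404 in basophil or mast cell-like cells. Ccl9 was at 333 to 1315 CPM in lesion macrophage-like and 1277 to 2094 in basophil or mast cell-like cells, and Ccl7 at 23.4 to 142 in Kupffer-like cells.

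Of a list of 46 genes of the pathways around the 5 members, the Micro matrix held 26, and 21 of them were tested in mature neutrophil-like cells. Of these, 6 were at least 2-fold lower in Tim3-KD and 1 was at least 2-fold higher, with a median log2 ratio of -0.61 over the 21, beside 6.04% lower and 1.78% higher among all 2186 genes tested. Beside the ligands Cxcl1, with a ratio of 0.417 (0.342 to 0.507), Cxcl3 and Ccl4, the lower genes included Socs3, a feedback inhibitor of G-CSF receptor signalling, with 133 and 30.3 CPM and a ratio of 0.227 (0.203 to 0.254), and the chemokine receptor Ccr3, with 17 and 5 UMIs and a ratio of 0.245 (0.0706 to 0.691). The higher gene was Pf4, a platelet chemokine, with 8 and 31 UMIs and a ratio of 3.22 (1.45 to 8.12). In Macro, 3 of 22 tested genes were at least 2-fold higher and 1 was at least 2-fold lower, with a median log2 ratio of 0.15, beside 3.53% higher and 3.08% lower among all 2207 genes tested. The higher genes were Cxcr1, the other receptor for CXC chemokines of this kind, with 10.1 and 44.0 CPM and a ratio of 4.34 (3.57 to 5.31), Cxcl3, and Ccl7 with 7 and 20 UMIs and a ratio of 2.39 (0.969 to 6.68). The lower gene was Cx3cr1, with 16 and 7 UMIs and a ratio of 0.365 (0.127 to 0.939). Ccr3, Pf4, Ccl7 and Cx3cr1 rest on few UMIs, the interval of Ccl7 includes 1, and stray RNA was not separated from expression at such levels, so no direction is read from these 4 genes.

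Over all cells, 9 of the 26 tested genes of the list were at least 2-fold lower in Micro Tim3-KD and 1 was higher, in Macro 2 of 23 were lower and 1 was higher, and in AT 7 of 26 were lower and 8 higher. Among all genes tested over all cells, 18.1% were lower and 0.749% higher in Micro, 10.6% lower and 2.27% higher in Macro, and 9.32% lower and 34.0% higher in AT. Csf1r was at 78.5 CPM in AT Ctrl and 407 in AT Tim3-KD over all cells, a ratio of 5.19 (4.91 to 5.48), opposite to Csf1 itself with 76.7 and 18.3 CPM. Kupffer-like cells, where Csf1r was highest, were 1.72% of AT Ctrl and 19.4% of AT Tim3-KD, and their part in this ratio was not tested.

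Genes with the most similar pattern were sought over 68 class-by-library groups of at least 30 cells, by Pearson's r of log2(CPM + 10), among the genes held by all 3 matrices. The groups share libraries, and these correlations are descriptions. For Cxcr2 they were Mirt2 (an antisense transcript in the annotation, r = 0.96), Asprv1 (0.95) and Il1f9 (0.95). For Csf3r they were Fbxl5 (0.90), Ppp1r3d (0.89) and Il1r2 (0.89), and for Ccr1 they were Clec4e (0.94), Slc16a3 (0.93) and Rhov (0.90). Ccrl2 was nearest to Clec7a (0.87), the merged Cxcl2 and Cxcl3 feature (0.86) and Ptafr (0.86), and Csf1 to Acod1 (0.86), Hdc (0.85) and Dmxl2 (0.84). Il1r2, Clec4e, Acod1 and Hdc were among the markers used to name the classes.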

How the data were processed

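Single-cell RNA-seq libraries of sorted CD45+ liver cells were analysed, 1 per group. The authors trimmed reads with Trim Galore 0.4.3, mapped them with STAR 2.7.7a to GRCm38, counted UMIs over exons and introns, filtered cells on UMIs, genes and mitochondrial reads and removed doublets with scrublet, as the methods and the submitters' processing notes state. No further doublets were removed here. The deposited matrix values are scaled scores, 1 matrix per site, capped at 10, for variable genes only, with the total UMIs of the cell regressed out. The library of each cell was read from the deposited cell names.

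The design assumed counts, so the scores were inverted to UMIs through the exact line on which cells without a UMI lie. Within 0.05 of a whole number lay 99.9995% of values in AT, 99.9997% in Micro and 99.9965% in Macro, and all values of the 5 genes, none of which was at the cap. The inversion was tested on simulated data. CPM was taken over all UMIs of a cell. The 1617 genes shared by the matrices, without the 5 members and the pathway list, were clustered (30 components, 15 neighbours, Leiden resolution 1, scanpy 1.11.5). All 26 clusters were named "X-like" from marker genes, by thresholds set after clusters had been seen and may differ from the study's annotation. Genes with at least 20 UMIs over both libraries were counted as at least 2-fold higher or lower (0.5 added to both sums). Named genes were the members, the ligands and receptors among the list, listed genes past 2-fold in mature neutrophil-like cells, and the 3 most similar genes per member, leaving out mitochondrial, ribosomal protein, haemoglobin, variable receptor and sex-linked genes. Members, lists and markers were chosen with earlier results of these data known. The values of 1 listed gene are not reported here. Gene positions are from GENCODE and promoters from RefSeq, both GRCm38. Alternatives were the mean over cells, cells of at least 3000 UMIs, a trimmed mean of log ratios over the matrix genes as scale, other clusterings and other UMI minimums. The matrix genes held 14.7% of all UMIs in AT, 11.3% in Micro and 13.1% in Macro.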

Additional observations from a re-analysis of the deposited data

Results flagged for a closer look

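In 4 genes the Tim3-KD over Ctrl ratio lay on opposite sides of 1 at the lesion sites, each interval excluding 1. The difference between the sites was not tested, since each site had 1 library per tumour line. In mature neutrophil-like cells the ratio was 0.821 in Micro and 1.38 in Macro for Csf3r, 0.660 and 1.61 for Cxcr2, 0.746 and 1.07 for Ccr1, and 0.471 and 1.36 for Ccrl2. Over all cells it was 0.846 and 1.14 for Csf3r, 0.692 and 1.32 for Cxcr2, and 0.466 and 1.07 for Ccrl2. The mix of mature neutrophil-like clusters differed too. With the cluster mix of Tim3-KD and the levels of Ctrl, the ratio was 0.822 and 1.51 for Csf3r and 0.915 and 1.48 for Cxcr2. It was 0.874 and 1.10 for Ccr1 and 0.635 and 1.22 for Ccrl2. Ratios at a set mix have no interval. Clusters are drawn from expression, so a change of mix and a change of level cannot be told apart, and the part of the mix was not tested. With the cluster mix of Ctrl, Cxcr2 (0.751 and 1.10) and Ccrl2 (0.708 and 1.12) were still on opposite sides of 1, Ccr1 was at 0.879 and 1.01, and Csf3r, at 0.996 and 0.936, was no longer on opposite sides. With the trimmed mean as scale, the log2 ratio of Csf3r over all cells of Micro was 0.20, no longer opposite to Macro.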

How the results depend on the processing

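Values are log2 ratios, Tim3-KD over Ctrl, in mature neutrophil-like cells unless said, and the cause of a difference between settings was not tested. Leaving out cells under 3000 UMIs kept 35 of 35 results within their counting error, while the mean over cells moved 22 of 35 beyond it and turned 1, the trimmed mean scale moved 22 of 25 and turned 3 whose interval had excluded 1, and the cluster mix of Ctrl moved 8 of 10 and turned 2. Leaving out cells at the cap could change nothing, since no value of the members was at the cap. With the trimmed mean as scale, Micro and Macro gave -0.14 and 0.58 for Csf3r, -0.45 and 0.80 for Cxcr2, -0.28 and 0.21 for Ccr1, -0.94 and 0.56 for Ccrl2 (Micro no longer past 2-fold) and -0.32 and 0.093 for Csf1 (sign turned in Macro, where the interval had included 1). Over all cells that scale turned the sign for Csf3r (0.20) and Csf1 (0.076) in Micro and Ccr1 (0.14) in Macro. The cluster mix of Ctrl, an alternative chosen after seeing the data, gave -0.0053 and -0.095 (sign turned) for Csf3r, -0.41 and 0.13 for Cxcr2, -0.19 and 0.011 for Ccr1, -0.50 and 0.17 for Ccrl2 (Micro no longer past 2-fold) and 0.15 (sign turned) and -0.24 for Csf1. The mean over cells gave 0.39 for Csf3r and -0.13 for Csf1 in Macro, and 0.21 (sign turned) for Ccr1 over all cells of Macro. For Ccrl2 in Micro, Leiden resolution 2 gave -1.04, clustering with the members -1.04 and calling cells one by one -1.01, and for Csf1 in Micro resolution 2 gave -0.38. Counts of genes past 2-fold (higher, lower) were 39 and 132 for Micro, 73 and 232 with at least 5 UMIs and 17 and 74 with at least 100. For Macro they were 78 and 68, with 132 and 118 at 5 UMIs and 26 lower at 100. For Micro against AT they were 104 and 122, with 196 and 187 at 5 UMIs and 52 and 69 at 100, and for Macro against Micro 453 higher became 256 at 100. Replicate numbers pair no samples, since each group had 1 library. A fit over all 6 libraries with the site as a term, which would take the sites as repeats of 1 contrast, was not run.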
